A study of Homo sapiens with 8 samples.

Results

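Oxidative phosphorylation depends on protein machines whose parts are encoded in both the mitochondrial and the nuclear genome, and the genes of both were followed here in 2 colorectal adenocarcinoma cell lines grown with and without caffeine. The genes were chosen by symbol: all 13 protein-coding genes of mitochondrial DNA (mtDNA), and nuclear protein-coding genes with symbols used for subunits of complexes I to V, CYC1 included. A few such symbols, among them ATP5IF1, ATP5MF-PTCD1 and NDUFC2-KCTD14, do not name a structural subunit, but all are called nuclear subunit genes here. This gave 101 genes of 62649 in the count files, 13 in mtDNA and 88 in the nucleus. Complex I had 7 mtDNA and 37 nuclear genes, complex II none and 4, complex III 1 and 10, complex IV 3 and 17, and complex V (ATP synthase) 2 and 20.

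The samples were SW480 cells, a line from a primary colon tumour, and SW620 cells, a line from a lymph node metastasis of the same patient. Per the labels both lines, controls included, carried the B8-mCherry fusion that makes their immunoproteasomes fluorescent. Each line was sampled untreated (control) and with caffeine, which makes 4 groups, each with 2 poly-A RNA-seq libraries named replicate 1 and 2. Caffeine is an adenosine receptor antagonist and phosphodiesterase inhibitor. The labels described SW620 cultures kept for 72 hours at 30, 60, 100, 250 or 500 µM, or for 28 days at 125 µM, and did not say which dose or time any sequenced library had, nor how SW480 was treated. The labels state at least 2 biological replicates per group without saying how they were separated, so p-values measure the spread between these libraries. Each line is a single line, so a difference between lines is a difference between these 2 cultures.

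Complexes I, III and IV pump protons across the inner mitochondrial membrane while electrons pass to oxygen, complex II feeds in electrons from succinate, and ATP synthase uses the proton gradient to make ATP. The mtDNA genes are read as long transcripts from both strands. Transfer RNAs between the coding genes are cut out, and most of the released mRNAs receive a short poly-A tail inside the mitochondrion. Nuclear subunit mRNAs are transcribed one gene at a time, and NRF1 and the ETS-family factor GABPA (NRF2) are known regulators of many of them.

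Library depth was 15760259 to 23269315 reads assigned to genes. Of 17671 genes tested, 13 were mtDNA mRNAs and 82 were nuclear subunit genes. The 6 nuclear genes left out by the filter on low counts were COX6A2, COX7B2 and NDUFC2-KCTD14, with a count of 0 in all 8 libraries, and COX7A1, ATP5MGL and ATP5MF-PTCD1. A count of 0 allows up to 3 counts, which is 0.129 to 0.190 CPM (counts scaled by library size and composition) per library, and this covers counting error only. The colon epithelial marker KRT19 was at 315 CPM or more in every library, whereas CDH1 was at 0.129 to 0.908 CPM and CDH17 at 0.383 to 0.708 CPM in SW480. The 8 epithelial markers summed to 4624 to 6900 CPM in SW480 and 10712 to 14344 CPM in SW620, where 2 rose and 2 fell with caffeine, and 7 of 8 were higher in SW620 than in SW480 controls. The 12 fibroblast, leukocyte and endothelial markers summed to 5.28 to 7.28 CPM in SW480, 16.8 to 18.3 CPM in SW620 controls and 31.8 to 32.6 CPM in SW620 with caffeine, and their part in any result was not tested. Of these 12, 5 were tested: 3 rose in SW620 with caffeine (COL1A1, VWF and PECAM1), none was called in SW480, and between the untreated lines 4 were higher and 1 lower in SW620. Over all genes 8.1% rose and 6.25% fell with caffeine in SW620, and between the lines 33% were higher and 32.6% lower in SW620. An unadjusted p under 0.05 in edgeR's quasi-likelihood test was reached by 3428 of the 17671 genes with caffeine in SW480 and 4938 in SW620. For the difference between the lines' responses it was reached by 4027, and between the untreated lines by 12114.

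The mtDNA mRNAs are compact. The last 30 coding bases of 5 of them are shown with the encoded stop codon in capitals (GRCh38, 5′ to 3′ on the coding strand). In 6 of the 13 genes, MT-ND1, MT-ND2, MT-ND3, MT-ND4, MT-CO3 and MT-CYB, the gene length is not a multiple of 3 and the DNA supplies only the T or TA of a TAA stop, which the added poly-A tail completes. MT-ATP6 is annotated to a full TAA, whose last base is also the first base of MT-CO3.
MT-CYB, chrM:15858-15887, plus strand: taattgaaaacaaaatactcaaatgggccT
MT-ND1, chrM:4233-4262, plus strand: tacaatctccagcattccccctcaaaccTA
MT-ND2, chrM:5482-5511, plus strand: ctatctccccttttatactaataatcttaT
MT-CO1, chrM:7416-7445, plus strand: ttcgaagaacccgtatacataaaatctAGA
MT-ND6, chrM:14149-14178, minus strand: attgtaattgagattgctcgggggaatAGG
MT-CYB, MT-ND1 and MT-ND2 were the 3 mRNAs with the lowest values in SW620 with caffeine, relative to the controls. MT-CO1 and MT-ND6, whose genes end in complete AGA and AGG codons, were the 2 whose portion of mtDNA mRNA was higher in all caffeine libraries than in all controls. These 5 were shown with their values known, and others went the other way. MT-ND4 ends in a lone T, and its portion was higher with caffeine within each line. MT-CO2, MT-ATP8 and MT-ATP6, annotated to a complete stop codon, were lower in both SW620 caffeine libraries than in both controls. A link to the 3′ ends was not tested.

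Pairs of mtDNA genes also share bases. The last 46 bases of MT-ATP8 are the first 46 of MT-ATP6 in another reading frame (22.2% of MT-ATP8 and 6.75% of MT-ATP6), and MT-ND4L and MT-ND4 share 7 bases. The stretch at the end of MT-ATP8 is shown with the shared bases in capitals, from the ATG of MT-ATP6 to the TAG of MT-ATP8.
MT-ATP8 and MT-ATP6, chrM:8498-8572, plus strand: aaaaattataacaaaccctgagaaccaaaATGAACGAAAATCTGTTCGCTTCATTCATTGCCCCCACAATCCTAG
These 2 mRNAs are made as 1 bicistronic transcript, as are MT-ND4L and MT-ND4. How reads in the shared bases were counted was not stated in the sources used here. Each count file holds a total of ambiguous reads assigned to no gene, so reads in shared bases may be missing from both genes. The counts of the members of each pair are therefore uncertain relative to each other.

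In the untreated cells, mtDNA mRNAs took several times more reads than all nuclear subunit genes together. They held 4.80% and 3.78% of assigned reads in the SW480 controls and 4.35% and 4.00% in the SW620 controls. The 88 nuclear genes held 0.900% and 1.18% in the SW480 controls and 0.916% and 0.953% in the SW620 controls. The number of mtDNA mRNA reads per nuclear subunit read was thus 5.34 and 3.21 in SW480 and 4.75 and 4.20 in SW620, and the lines overlapped in it.

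Per length, as TPM (counts divided by transcript length and scaled to the same total in each library, mean of all 8), MT-CO2 was the most abundant of the 101 mRNAs at 15788 TPM. MT-CO2 and MT-CO3 (12910 TPM) encode core subunits of cytochrome c oxidase, and MT-ATP6 (10724 TPM) the membrane subunit of ATP synthase through which protons pass. MT-ND6 (1195 TPM), the one mRNA of the other strand, and MT-ND5 (1169 TPM) were the lowest of the 13. Of the nuclear genes ATP5F1B, the catalytic beta subunit of ATP synthase, was highest at 1419 TPM, and it alone exceeded any mtDNA mRNA. ATP5MC2, which encodes the ring subunit c, followed at 718 TPM, COX6B1 at 713 TPM and COX4I1 at 684 TPM.

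With caffeine, the mtDNA mRNA percentage was lower than in the controls of the same line in each of the 4 libraries. In SW620 it was 3.08% and 3.33%, below 4.35% and 4.00%, and the groups did not overlap. In SW480 it was 3.76% in caffeine replicate 1, just under the 3.78% of control replicate 2, and 1.03% in caffeine replicate 2, the low library of the series. With 2 libraries against 2 an exact permutation test cannot give a p below 0.333, so these percentages were not tested. In bulk RNA, less mtDNA mRNA in each cell and a different mix of cells cannot be told apart.

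In SW480 the nuclear subunit genes did not follow the mtDNA mRNAs. They held 1.07% and 1.09% in the SW480 caffeine libraries, within the range of the controls. In the SW620 caffeine libraries they held 0.949%, within the 0.916% to 0.953% of the controls, and 0.830%, the lowest of all libraries. The library with 1.03% mtDNA mRNA had an ordinary 1.09% on nuclear subunit genes, so its ratio of mtDNA to nuclear reads was 0.947, against 3.21 to 5.34 in the other 7 libraries.

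**Figure D1:**
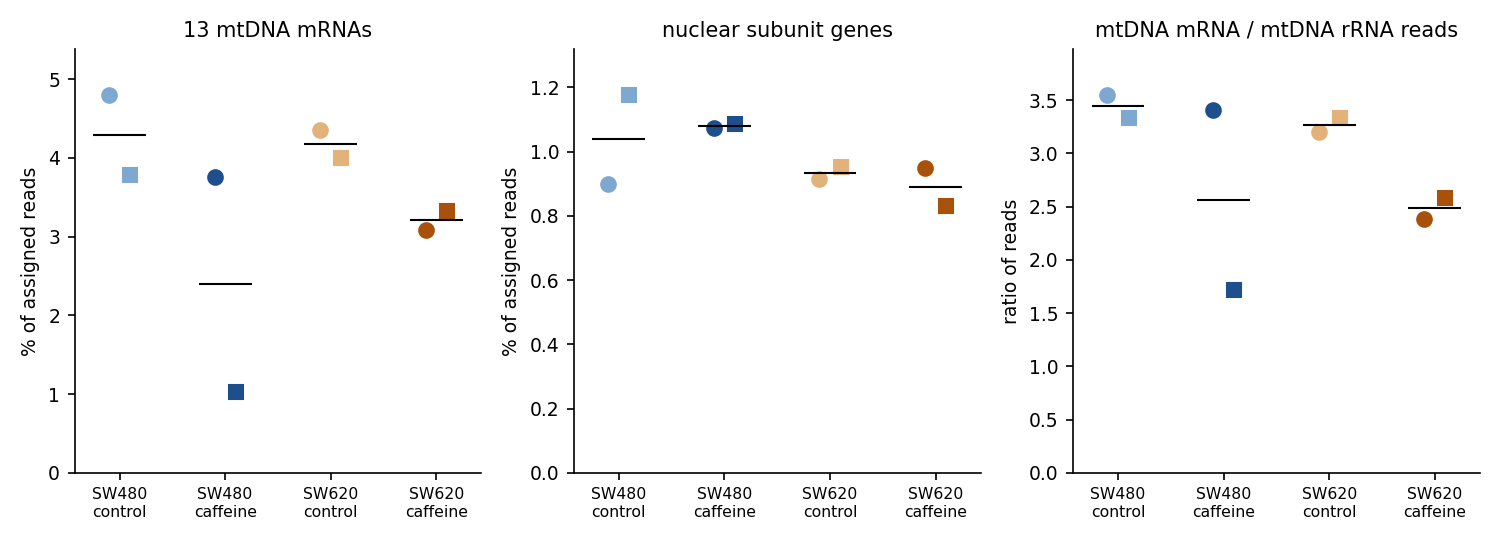
Reads on the 13 mtDNA mRNAs and on the 88 nuclear subunit genes, as % of assigned reads, and the ratio of mtDNA mRNA to mtDNA rRNA reads, in each library (circle replicate 1, square replicate 2) with the group mean as a line. SW480 caffeine replicate 2 lies apart for the mtDNA mRNAs (1.03%) and for the ratio (1.72), and within the range of the others for the nuclear genes (1.09%).

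The mtDNA ribosomal RNAs, MT-RNR1 and MT-RNR2, come from the same transcripts as the mRNAs. Their part of assigned reads was 1.35% and 1.14% in the SW480 controls, 1.10% and 0.599% with caffeine, 1.36% and 1.20% in the SW620 controls and 1.29% and 1.29% with caffeine. Neither rRNA was called in either line by edgeR's quasi-likelihood test, and in SW620 their log2 fold changes were -0.03 (MT-RNR1) and 0.03 (MT-RNR2). In SW480 they were -0.74 and -0.54, with 2 of 2 at an unadjusted p under 0.05. The ratio of mRNA to rRNA reads in SW620 was 3.20 and 3.33 without and 2.39 and 2.58 with caffeine. In SW480 it was 3.55 and 3.33 without caffeine, 3.41 in caffeine replicate 1 and 1.72 in caffeine replicate 2. The 2 SW620 caffeine libraries and SW480 caffeine replicate 2 were thus below the other 5. Poly-A selection draws RNA by its tail, and mtDNA rRNAs carry very short tails, so these ratios also depend on that selection, whose part was not tested.

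Of the 22 mtDNA transfer RNAs 1 passed the filter, and it was not called in any comparison. Of 404 annotated nuclear pseudogene copies of mtDNA protein genes 4 passed the filter, and they were not called with caffeine. Between the untreated lines 1 of the 4, MTCO3P12, was called higher in SW620. Together the 404 held 0.0480% to 0.104% of assigned reads. The highest of the 4 was MTATP6P1, a copy of MT-ATP6, at 462 to 955 CPM per library. The nuclear-retained RNAs MALAT1 and NEAT1 were at 25.6 and 460 CPM in the SW480 caffeine library with the low mtDNA percentage, and at 26.1 and 456 CPM in the other SW480 caffeine library. The 2 libraries therefore did not stand apart in these RNAs, of which 0 of 2 were called with caffeine in either line by edgeR (1 of 2 in each line had an unadjusted p under 0.05). Between the untreated lines MALAT1 was higher and NEAT1 lower in SW620.

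In SW480, all 13 mtDNA mRNAs had lower fitted levels with caffeine and none passed the test across all genes. Their log2 fold changes ran from -1.31 (MT-CYB) to -0.37 (MT-ND4L), with a median of -0.75 beside 0.00 over all genes tested. By edgeR's quasi-likelihood test with Benjamini-Hochberg adjustment, 0 of 13 were called (1 at an unadjusted p under 0.05), 0 by DESeq2's Wald test and 1 by limma-voom. Over all genes the edgeR test called 3.6% in this comparison. The nearest to the threshold was MT-ND3, an intrinsic membrane subunit of complex I, which measured 800 and 842 CPM in the controls and 631 and 310 CPM with caffeine. Its log2 fold change was -0.80 ± 0.22 (SE, adjusted p = 0.0556).

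SW480 caffeine replicate 2 set the size of these values. In that library MT-CYB was at 453 CPM, while the other 3 SW480 libraries had 4241 and 3073 (controls) and 2488 CPM (caffeine replicate 1). MT-ATP6 was at 755 CPM there and at 5116, 4444 and 4367 CPM in the others. Its nuclear copy MTATP6P1 was at 462 CPM there and at 903, 713 and 955 CPM in the others, and reads of the 2 may be divided uncertainly. MT-ND4, a proton-pumping subunit of complex I, was at 1983 CPM, against 8988, 6423 and 7786 CPM. Without this library the median log2 fold change of the 13 was -0.16 and none was called, among 0.306% of all genes. Without caffeine replicate 1 the median was -1.84 and all 13 were called lower, among 2.87% of all genes called lower. The caffeine arm then had 1 library, whose spread was assumed to equal that of the other groups.

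Even in that library the 13 mRNAs were not reduced in equal measure. Relative to the mean of the SW480 controls, MT-ND2 had the lowest value and MT-ND4L the highest, as the plot of log2 CPM over the control mean shows. MT-CO1, which encodes the catalytic subunit of complex IV, stood at 1443 CPM against 4632 and 3378 CPM in the controls. MT-ND2, a complex I subunit, stood at 379 CPM against 3509 and 2829 CPM.

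**Figure D2:**
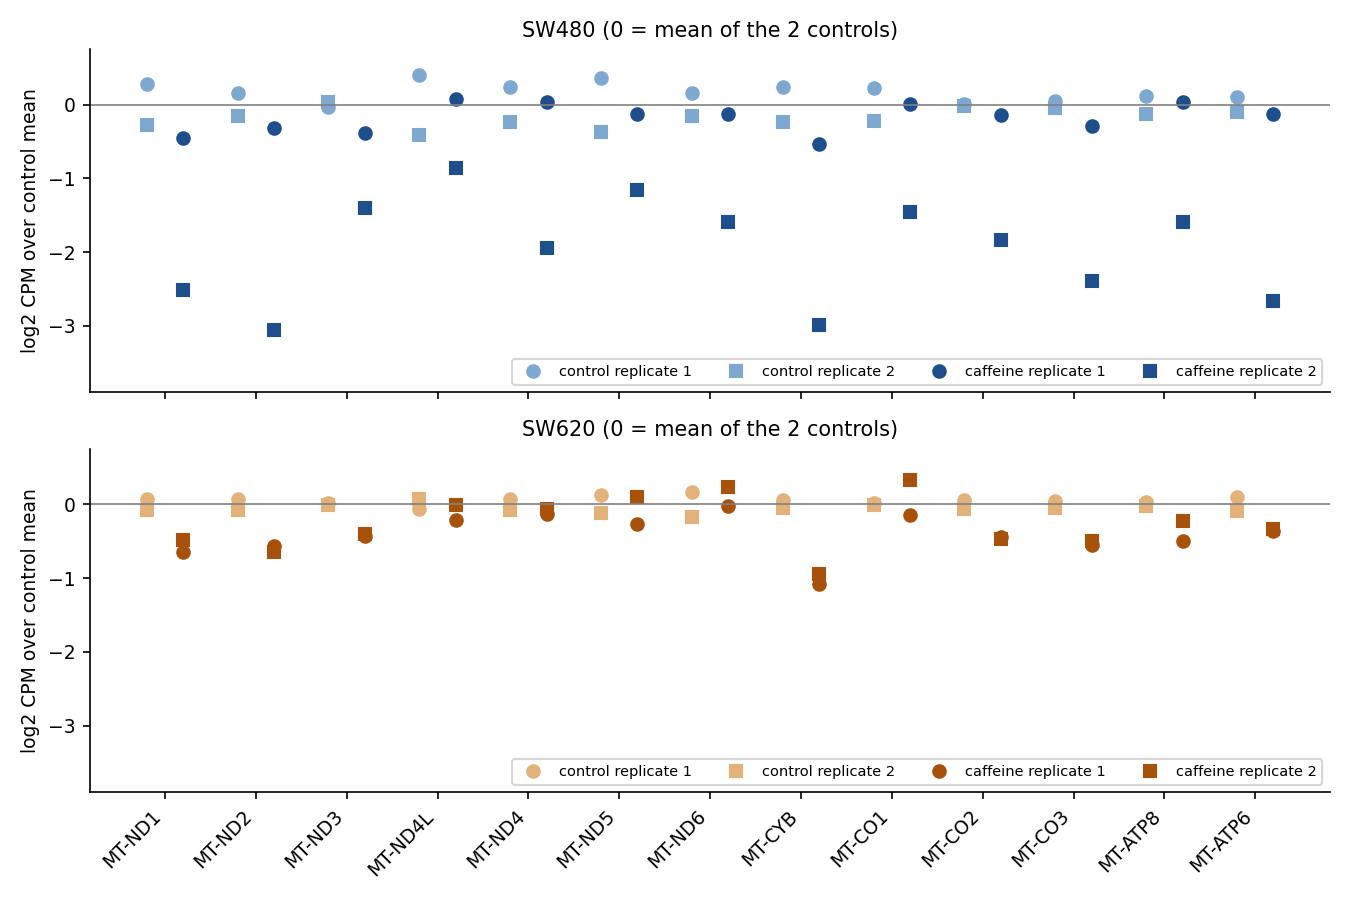
CPM of each mtDNA mRNA in each library, as log2 relative to the mean of the 2 controls of its line (grouped by complex; circles replicate 1, squares replicate 2). In SW480 the caffeine replicates lie far apart, whereas in SW620 both caffeine libraries lie about 1 log2 unit below the controls for MT-CYB and near 0 for MT-ND4.

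In SW620 the caffeine libraries lay close to each other, and 8 mRNAs were below both controls in both of them. The share of all genes that separated in this way was not counted, and the mRNAs share the same libraries. This count is therefore a description. MT-CYB, cytochrome b of complex III, measured 3897 and 3619 CPM in the controls and 1777 and 1952 CPM with caffeine. MT-ND2 measured 3298 and 2975 CPM without and 2121 and 1993 CPM with caffeine. MT-ND1, the complex I subunit at the quinone site, measured 3143 and 2847 CPM without and 1907 and 2140 CPM with caffeine. For all 3 the groups were well separated.

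MT-CO3 was at 7496 and 6982 CPM in the SW620 controls and at 4956 and 5112 CPM with caffeine. MT-CO2, which holds the copper centre that accepts electrons from cytochrome c, was at 6577 and 6037 CPM without and 4644 and 4543 CPM with caffeine. MT-ND3 was at 723 and 708 CPM without and 534 and 540 CPM with caffeine. MT-ATP6 was at 4888 and 4273 CPM without and 3557 and 3619 CPM with caffeine, and MT-ATP8 at 365 and 351 CPM and at 253 and 306 CPM. In these 5 as well, each caffeine value lay under both controls.

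The other 5 did not separate in this way. MT-ND4 was at 6890 and 6234 CPM in the controls and 5994 and 6278 CPM with caffeine. MT-CO1 was at 3879 and 3812 CPM without and 3489 and 4847 CPM with caffeine, and MT-ND6 at 346 and 275 CPM and at 304 and 364 CPM. MT-ND5 was at 1302 and 1102 CPM without and 994 and 1282 CPM with caffeine, and MT-ND4L at 387 and 423 CPM and at 348 and 404 CPM. In all 5 the caffeine and control ranges overlapped.

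Whether the SW620 differences passed a test depended on which libraries set the spread. In the fit of all 8 libraries, 0 of 13 were called (0 at an unadjusted p under 0.05, 0 by DESeq2 and 0 by limma-voom), with 11 of 13 negative and a median log2 fold change of -0.35. Over all genes that fit called 14.4% in SW620. MT-CYB, for example, had -1.01 ± 0.82 (SE, adjusted p = 0.506), where the SE takes in the spread of the SW480 caffeine libraries. In a fit of the 4 SW620 libraries alone, edgeR called 8 of 13 lower and none higher, among 13% of all genes called lower. The 8 were MT-CYB at -1.0 ± 0.10 (adjusted p = 1.07e-06), MT-ND2 at -0.60, MT-ND1 at -0.56, MT-CO3 at -0.51, MT-CO2 at -0.45, MT-ND3 at -0.40, MT-ATP8 at -0.34 and MT-ATP6 at -0.34, with adjusted p from 0.000195 to 0.0156 for the last 7. The other 5 were MT-CO1 (0.13), MT-ND6 (0.12), MT-ND5 (-0.07), MT-ND4 (-0.09) and MT-ND4L (-0.10).

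When all libraries but SW480 caffeine replicate 2 were fitted together, 6 of these 8 were called lower in SW620, among 6.42% of all genes called lower. They were MT-CYB (adjusted p = 0.000936), MT-ND2 (0.0109), MT-CO3 (0.0163), MT-ND3 (0.0214), MT-CO2 (0.0305) and MT-ND1 (0.0387), all by edgeR's quasi-likelihood test. MT-ATP6 and MT-ATP8 kept log2 fold changes of -0.34 and missed the threshold. Without SW480 caffeine replicate 1, 6 were also called lower, among 6.43% of all genes called lower.

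Of the 6 mRNAs whose gene length is not a multiple of 3, 5 were called lower in SW620 in the fit of that line alone. MT-ND4 was the exception, and the median log2 fold change of the 6 was -0.54. Of the 7 annotated to a complete codon 3 were called lower (MT-CO2, MT-ATP8 and MT-ATP6), with a median of -0.10. The place of MT-ATP6 among these is uncertain. The last base of its stop codon is also the first base of MT-CO3, so its mRNA may lack a complete stop codon too. This grouping is a description of 13 genes of 1 genome that share their transcripts, and was not tested.

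The difference between the lines' responses was itself not called for any mtDNA mRNA. All 13 log2 differences (SW620 minus SW480) were positive, with a median of 0.51, and 0 were called by edgeR (0 at an unadjusted p under 0.05), DESeq2 or limma-voom, beside 6.71% of all genes by edgeR. Without SW480 caffeine replicate 1, 12 were called, among 8.53% of all genes, with a median of 1.71. Without SW480 caffeine replicate 2 the median was -0.10 and none was called, among 3.81% of all genes.

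Each mRNA was also taken as a percentage of the sum of the 13, which sets aside how much mtDNA mRNA a library holds. The low library, SW480 caffeine replicate 2, still had an unusual mix. Its MT-ND2 (3.73%), MT-CYB (4.45%) and MT-ATP6 (7.41%) were the lowest of all libraries, and its MT-ND4L (2.74%) the highest. For most of the 13 it held the highest or lowest value, though not for MT-CO1 or MT-ND4. MT-CYB made up 8.88% and 7.93% in the SW480 controls and 9.02% and 9.13% in the SW620 controls. With caffeine it made up 6.53% and 4.45% in SW480 and 5.75% and 5.85% in SW620, so that all 4 caffeine libraries lay under all 4 controls. MT-ND2 did the same, with 7.35%, 7.30%, 7.64% and 7.51% in the controls and 6.64%, 3.73%, 6.87% and 5.97% with caffeine (SW480 first).

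MT-CO1 went the other way, with 9.70% and 8.72% in the SW480 and 8.98% and 9.62% in the SW620 controls. With caffeine it made up 10.4% and 14.2% in SW480 and 11.3% and 14.5% in SW620. MT-ND6, which often lacks a poly-A tail, made up 0.976% and 0.970% in the SW480 and 0.801% and 0.693% in the SW620 controls. With caffeine it made up 1.00% and 1.37% in SW480 and 0.986% and 1.09% in SW620. These were the 2 mRNAs with all 4 caffeine values above all 4 controls, although MT-ND6 in SW480 caffeine replicate 1 exceeded the highest control by little.

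For the other 9 mRNAs, the caffeine and control values overlapped when both lines were pooled. MT-ND4 was higher with caffeine within each line, with 18.8% and 16.6% against 20.4% and 19.5% in SW480 and 16.0% and 15.7% against 19.4% and 18.8% in SW620. MT-ND1 was lower within each line, with 6.98% and 5.88% against 5.28% and 4.73% in SW480 and 7.28% and 7.18% against 6.18% and 6.41% in SW620. MT-CO3 was also lower within each line. Within SW480, 4 of the 13 were higher, 4 lower and 5 overlapped, and within SW620 these numbers were 5, 5 and 3. Percentages of a fixed sum are not independent of each other, and no test was made on 2 libraries against 2. No share over all genes stands beside these counts, so they are a description and not a result of caffeine.

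**Figure D3:**
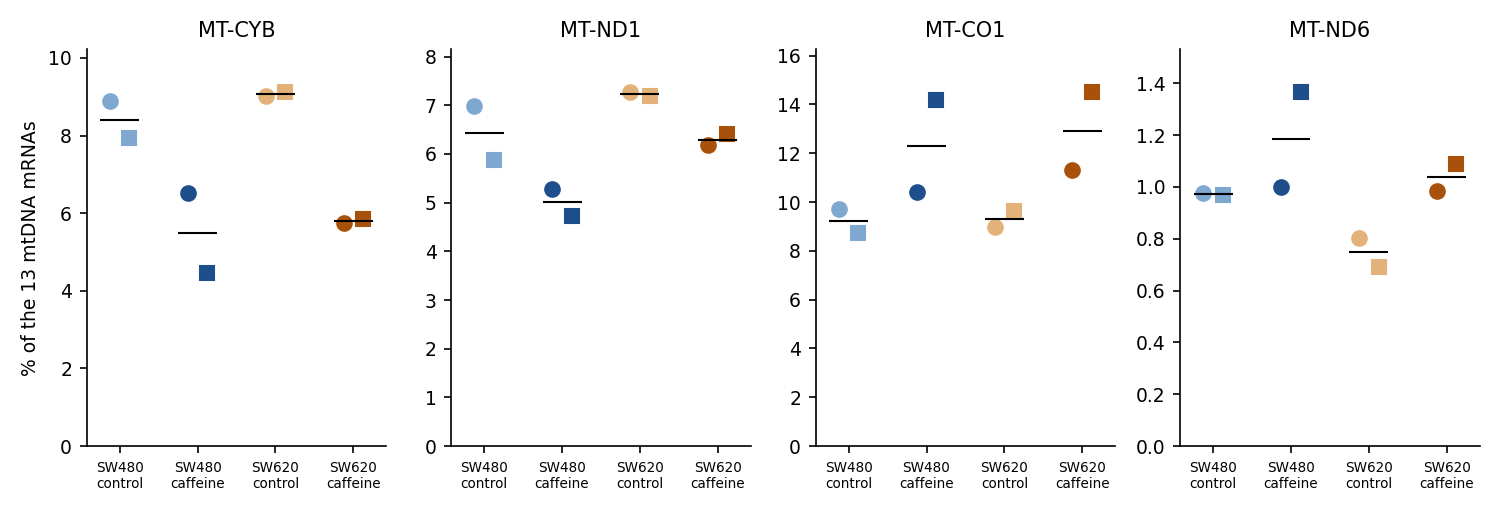
Each mRNA as % of the reads on the 13 mtDNA mRNAs in each library (circle replicate 1, square replicate 2, line the group mean). The 4 caffeine libraries lie below the 4 controls for MT-CYB and above them for MT-CO1 and MT-ND6, and below the controls of the same line for MT-ND1.

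The nuclear subunit genes showed almost no caffeine response at the test's threshold. In SW480, 0 of 82 were called by edgeR, beside 3.6% of all genes, 0 by DESeq2 and 0 by limma-voom. At an unadjusted p under 0.05 by edgeR there were 8, beside 3428 of all 17671 genes. Of the 82, 47 were positive, with a median of 0.05 on the log2 scale. In SW620, 1 of 82 was called higher, beside 8.1% of all genes, and 0 lower, beside 6.25%. There 62 of 82 were negative, with a median of -0.10 beside -0.01 over all genes. Members with mRNAs under 1000 bp had a median of -0.11, and other protein-coding genes under 1000 bp -0.07. For those of 1000 bp and over the medians were -0.07 and 0.01.

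The called gene was COX6B2, the testis form of a complex IV subunit, and it rested on few reads. It had 4 and 3 counts in the SW620 controls and 12 and 12 with caffeine, that is 0.202, 0.15, 0.714 and 0.604 CPM, and its log2 fold change was 1.86 ± 0.58 (SE, adjusted p = 0.0410). In SW480 it had 23 and 16 counts without and 14 and 18 with caffeine, and was not called. The SW620 controls lay at or just over the 3 counts that a count of 0 allows. The call was lost by DESeq2's Wald test, with no filter on low counts, with the replicate block and when any 1 of the 4 SW620 libraries was left out. COX6B2 exons share 1178 bases with another annotated gene on the same strand, and reads of the 2 cannot be fully separated.

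In the fit of the SW620 libraries alone, 10 nuclear subunit genes were called in SW620, among 28.4% of all genes. Besides COX6B2, NDUFS1 (0.32) and NDUFV2 (0.50), which hold iron-sulfur clusters of complex I, were called higher, as was UQCRC1 (0.26), a core protein of complex III. NDUFS6 (-0.47), NDUFB2 (-0.42), NDUFB10 (-0.39) and NDUFA10 (-0.24) of complex I, ATP5MC1 (-0.34), a gene for subunit c, and COX7C (-0.28) of complex IV were called lower. NDUFS6 measured 63.9 and 55.6 CPM in the controls and 46.4 and 39.2 CPM with caffeine. NDUFS1 measured 125 and 131 CPM without and 153 and 165 CPM with caffeine. The complex II genes SDHA to SDHD had log2 fold changes of -0.12 to 0.11 in SW620 and -0.28 to 0.07 in SW480, and none was called in either.

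By complex, the medians of the log2 fold changes with caffeine lay between -0.08 (complex IV) and 0.08 (complex I) in SW480, and between -0.17 (complex V) and -0.04 (complex IV) in SW620. The difference between the lines' responses was called for 0 of 82 nuclear genes by edgeR, DESeq2 or limma-voom, beside 6.71% of all genes by edgeR. At an unadjusted p under 0.05 by edgeR there were 10, beside 4027 of all 17671 genes. Without SW480 control replicate 2, however, 12 nuclear genes were called higher with caffeine in SW480 and 16 differed between the lines, among 3.75% called higher and 11.7% called of all genes. Without SW480 caffeine replicate 1, 3 were called higher and 3 lower in SW480, among 3.21% and 2.87% of all genes.

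The replicates of a group also differed in nuclear subunit genes. Between the 2 SW480 controls, 78 of 82 nuclear subunit genes were higher in replicate 2, by a median of 0.51 log2 units. Other protein-coding genes shorter than 1000 bp were higher there too, by a median of 0.39, while those of 1000 bp and over differed by -0.02. Spearman's rho between this difference and mRNA length was -0.48 over the 82 genes and -0.51 over 13550 others, across genes that share these 2 libraries. The mtDNA mRNAs went the opposite way, with a median of -0.31.

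The SW620 controls differed little, with a median of 0.05 over the nuclear genes. In the SW620 caffeine pair 5 of 82 were higher in replicate 2, with a median of -0.25, and rho with length was 0.59 over the 82 and 0.44 over the others. In the SW480 caffeine pair, the median was -0.01 but the range ran from -1.51 (ATP5MF) to 0.67 (NDUFA7). NDUFA7 had only 4 and 11 counts in this pair and shares 456 exon bases on the same strand with another annotated gene. ATP5PF was at -1.22, UQCR10 at -0.98 and UQCR11 at -0.90. ATP5MF, a small membrane subunit of ATP synthase, measured 179 and 62.7 CPM in these 2 libraries and 139 and 225 CPM in the SW480 controls. The part of transcript length in the differences between groups was not tested.

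**Figure D4:**
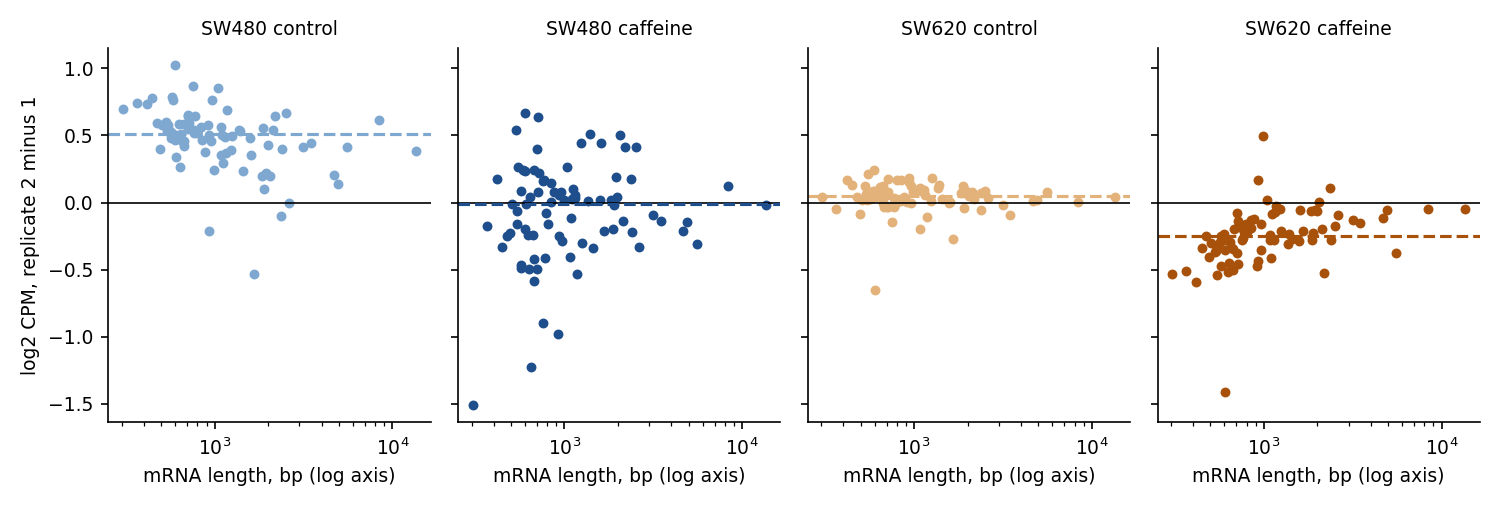
Difference between the replicates of each group (log2 CPM, replicate 2 minus 1) for the 82 tested nuclear subunit genes against mRNA length in bp on a log axis; the dashed line is the median. The median is 0.51 for the SW480 controls and -0.25 for the SW620 caffeine libraries, and near 0 in the other groups.

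The untreated lines differed in nuclear subunit genes much more than caffeine changed them. Of 82, 13 were higher and 26 lower in the SW620 than in the SW480 controls, together 39, beside 33% of all genes called higher and 32.6% called lower (65.6% in all). The portion of nuclear subunit genes that was called, 39 of 82, was under that of all genes. The median log2 difference was -0.09, beside 0.03 over all genes. The split of calls moved with the SW480 control pair: without control replicate 1 it was 7 higher and 37 lower, and without control replicate 2 it was 23 higher and 17 lower. Over all genes 29% were called higher and 30.3% lower without the first, and 28.2% and 30% without the second. None of the 13 mtDNA mRNAs was called by edgeR (0 at an unadjusted p under 0.05), DESeq2 or limma-voom, with a median of -0.08. For these mRNAs the fit takes in the wide spread of the SW480 caffeine libraries, so a missing call does not show that the lines are alike. The lowest was MT-ND6, at -0.45 without SW480 caffeine replicate 1 and -0.46 without SW480 caffeine replicate 2.

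Complex II is the one complex with no mtDNA subunit, and 3 of its 4 genes were lower in SW620, beside 32.6% of all genes. SDHD, a membrane anchor, measured 111 and 131 CPM in the SW480 controls and 67.5 and 68.7 CPM in the SW620 controls, a log2 difference of -0.83 ± 0.14 (SE, edgeR adjusted p = 8.33e-05). The caffeine libraries of each line stayed on the same sides, with 112 and 88 CPM in SW480 and 68.4 and 56.6 CPM in SW620. Exons of SDHD share 319 bases with another annotated gene on the same strand. SDHB, the iron-sulfur subunit, measured 110 and 143 CPM against 93.2 and 96.9 CPM (-0.41, adjusted p = 0.0105). SDHA, the flavoprotein that oxidises succinate, measured 28.4 and 37.5 CPM against 24.6 and 23.7 CPM (-0.45, adjusted p = 0.0190), and reads from its pseudogene copies may be divided uncertainly. SDHC, the other anchor, was not called, with 58.2 and 76.1 CPM against 59.0 and 60.6 CPM (-0.17). Without SW480 control replicate 1 all 4 were lower, and without SW480 control replicate 2 SDHD alone was, with SDHA at -0.27 and SDHB at -0.25. SDHA also lost its call without either SW620 control, and SDHB without SW620 control replicate 1.

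In complex I, 12 of 36 tested nuclear genes were lower and 4 higher in SW620, beside 32.6% and 33% of all genes. The lower calls were thus near the share of all genes. The lower ones included NDUFB1, an accessory membrane-arm subunit, with 58.7 and 97.6 CPM in SW480 and 33.5 and 37.6 CPM in SW620 (-1.14 ± 0.21, adjusted p = 0.000140). NDUFS6, which carries zinc, measured 99.4 and 146 CPM against 63.9 and 55.6 CPM (-1.04). NDUFA3 (-0.97), NDUFA12 (-0.89) and NDUFS8 (-0.87), an iron-sulfur subunit, followed. Core subunits were on the lower side as well, with NDUFS1 at 207 and 193 CPM in SW480 and 125 and 131 CPM in SW620 (-0.64). In complex I 18 were lower and 3 higher without SW480 control replicate 1, and 8 lower and 7 higher without control replicate 2, where NDUFB1 was at -0.76 and NDUFA3 at -0.57.

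The 4 complex I genes that were higher in SW620 were NDUFV2 (1.47 ± 0.21), NDUFB8 (1.09), NDUFC1 (0.89) and NDUFA13 (0.83). NDUFC1 measured 37.3 and 53.3 CPM in SW480 and 84.8 and 83.5 CPM in SW620 (adjusted p = 0.000101). NDUFV2 measured only 2.78 and 2.39 CPM against 6.73 and 7.67 CPM. NDUFV2, NDUFB8 and NDUFA13 share 771, 675 and 437 exon bases on the same strand with a further annotated gene. Reads in these bases may have been left out as ambiguous, so the levels of the 3 genes are uncertain and may be too low. NDUFA13 lost its call without SW480 control replicate 1, without SW620 control replicate 2 and by DESeq2's Wald test. NDUFC1 shares 360 such bases with MGARP.

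In complex III, UQCRQ, UQCRFS1 (the Rieske iron-sulfur protein) and UQCRC1 were lower in SW620, and UQCRB, UQCRC2, UQCRH and its intronless copy UQCRHL higher. UQCRQ measured 112 and 191 CPM in SW480 and 80.9 and 85.8 CPM in SW620 (-0.86). UQCRC2, a core protein, measured 153 and 152 CPM in SW480 and 211 and 216 CPM in SW620 (0.49, adjusted p = 0.00245), and its caffeine libraries kept apart by line too, at 135 and 107 against 232 and 217 CPM. UQCRHL (0.70) is so like UQCRH (0.35) in sequence that their reads may be divided uncertainly. Without SW480 control replicate 1, 2 were higher and 3 lower, and UQCRHL was not called (0.40). Without control replicate 2, 4 were higher and 1 lower, and UQCRQ was at -0.46.

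In complex IV, 5 of 14 were lower and 2 higher, beside 32.6% and 33% of all genes. NDUFA4, a subunit of complex IV despite its name, measured 234 and 340 CPM in SW480 and 141 and 149 CPM in SW620 (-0.98, adjusted p = 2.28e-05). Its paralogue NDUFA4L2, known as a hypoxia-induced gene, was higher in SW620, with 2.24 and 3.68 CPM against 8.05 and 7.47 CPM (1.38 ± 0.24, adjusted p = 9.10e-05). COX7C measured 104 and 142 CPM in SW480 and 204 and 222 CPM in SW620 (0.80), and COX6B1 192 and 289 CPM against 128 and 131 CPM (-0.89). COX6B2 was lower in SW620 (-2.67 ± 0.53), on the few counts given above. Without SW480 control replicate 1 or 2, 5 and 4 were lower and 2 and 6 higher.

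ATP synthase held the most clear-cut of these differences. ATP5F1E, the epsilon subunit of the central stalk, measured 370 and 544 CPM in the SW480 controls, 499 and 436 CPM with caffeine, 131 and 142 CPM in the SW620 controls and 132 and 108 CPM with caffeine. The lines did not overlap, and the difference between the controls was -1.75 ± 0.16 (SE, adjusted p = 6.67e-08). Its exons share 1188 bases with TUBB1 on the other strand, and the strand setting of the counting was not given. ATP5MC2 (0.46), ATP5PD (0.48) and ATP5MK (0.56) were higher in SW620, and ATP5MC3 (-0.67) and ATP5MJ (-0.65) lower. Without SW480 control replicate 1, however, 0 of 18 ATP synthase genes were higher and 7 lower, with ATP5MK at 0.29. Without control replicate 2, 6 were higher and 3 lower, with ATP5MK at 0.85. ATP5MK was also not called without SW620 control replicate 2. ATP5F1B was alike in all libraries, at 1248 to 1447 CPM, with a log2 difference of -0.01. ATP5MF was not called between the lines with all libraries, and its SW480 caffeine replicates lay far apart, as given above. It had 2292 and 3847 counts in the SW480 controls and 1212 and 1262 in the SW620 controls. Its log2 difference was -1.55 without SW480 caffeine replicate 1 and -1.56 without SW480 caffeine replicate 2.

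**Figure D5:**
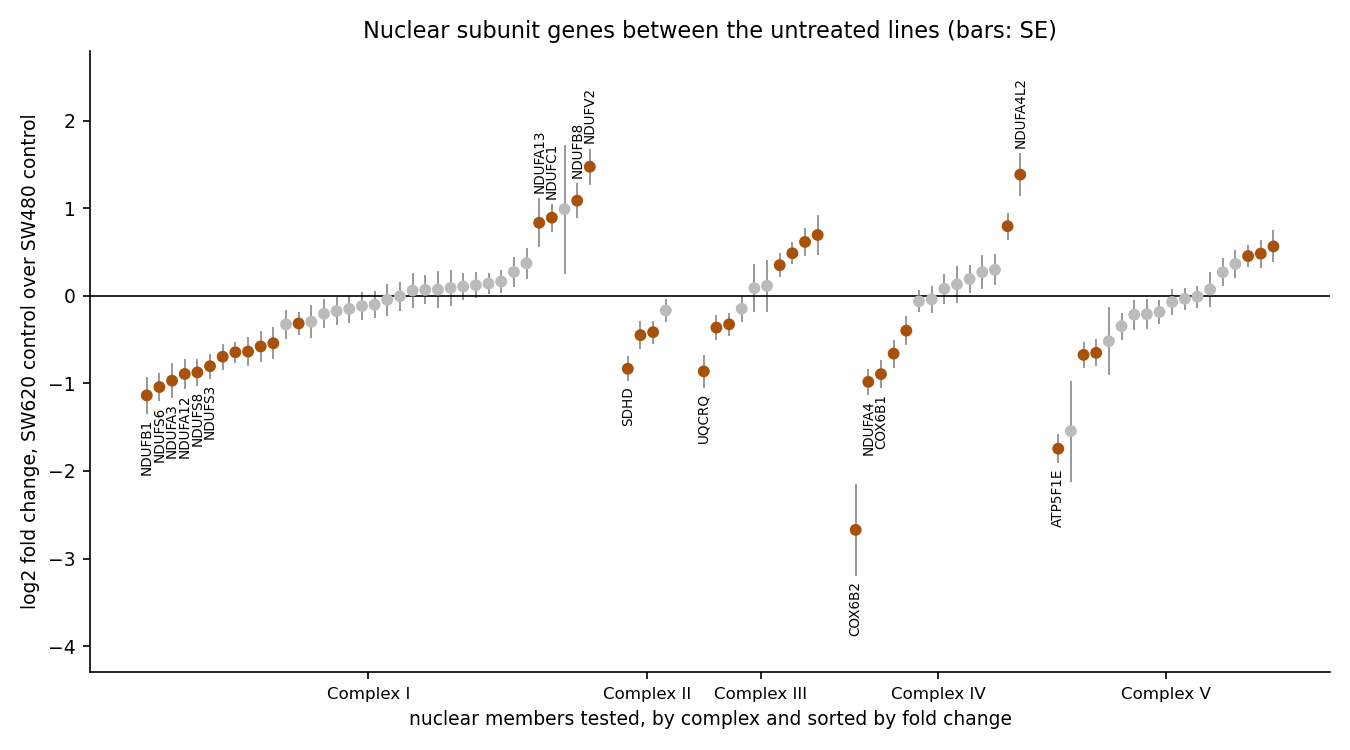
Log2 fold change (SW620 control over SW480 control, point) with its SE (bar) for each of the 82 tested nuclear subunit genes, by complex and sorted; brown points passed an adjusted p of 0.05 and grey did not. Names are given where a called value exceeds 0.8 in size: ATP5F1E (-1.75) and COX6B2 (-2.67) lie lowest and NDUFV2 (1.47) highest.

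Short sequences known to be bound by NRF1, ETS-family factors such as GABPA, and YY1 were looked for in the 250 bases before the start in the RefSeq promoter table (GRCh38.p14). Of the 88 nuclear members 69 were in the table, with 82 windows among 35116. The NRF1-type sequence (GCGCA, any base, then GCGC) stood on either strand in 17.1% of the members' windows and 5.07% of all windows. The ETS-type sequence CCGGAAGT stood in 14.6% and 3.42%, and the YY1-type sequence AAGATGGCG in 2.44% and 0.652%. Any of the 3 stood in 30.5% of the members' windows and 8.67% of all windows, and some windows held more than 1. A match is a description of letters and not a bound site. Windows with a match also belonged to genes higher in SW620, among them NDUFA13, ATP5MK, ATP5PD and UQCRH. The windows of 30 bases around matches in 3 genes that were lower in SW620 are shown, matched bases in capitals, written along the gene's own strand.
SDHD, chr11:112086753-112086782, plus strand, NRF1 type: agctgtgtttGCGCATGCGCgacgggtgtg
SDHD, chr11:112086784-112086813, plus strand, ETS type read on the other strand: accgcctctcgACTTCCGGttcacccagca
NDUFA12, chr12:95003794-95003823, minus strand, NRF1 type: acctagctctGCGCACGCGCagagccacca
UQCRQ, chr5:132866577-132866606, plus strand, ETS type: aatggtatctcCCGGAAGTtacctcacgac
SDHA held the NRF1-type sequence 4 times within its window, at chr5:218144-218173, chr5:218193-218222, chr5:218242-218271 and chr5:218290-218319.

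Genes with roles around the subunits were read from gene lists, whose medians stand beside all-gene medians of 0.00 in SW480 and -0.01 in SW620. Of 19 tested genes for mtDNA transcription and replication, 0 were called in SW480 by edgeR (2 at an unadjusted p under 0.05), and 1 rose and 2 fell in SW620, beside 8.1% and 6.25% of all genes, with median log2 fold changes of -0.03 and -0.10. TWNK, the mtDNA helicase, measured 112 and 106 CPM in the SW620 controls and 75.1 and 83.7 CPM with caffeine (-0.46, adjusted p = 0.0190). MTERF2 fell (-0.56) and TFB1M, an rRNA methyltransferase, rose by 0.44 at an adjusted p of 0.0499. TFAM, which packs mtDNA and starts its transcription, had -0.29 in SW620 (adjusted p = 0.106). It was higher in SW620 than in SW480 controls, at 185 and 190 against 118 and 129 CPM (0.61). In that comparison 7 of the 19 were higher and 5 lower, beside 33% and 32.6% of all genes.

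Of 18 genes that process, tail or degrade mtDNA transcripts, edgeR called none with caffeine in SW480 (4 at an unadjusted p under 0.05) or in SW620 (0), and the medians were -0.02 and -0.12. Between the untreated lines, 12 were lower and 1 higher in SW620, beside 32.6% of all genes called lower, with a median log2 difference of -0.63. FASTKD2, an RNA-binding protein of mitochondrial RNA granules, measured 88.4 and 94.0 CPM in SW480 and 31.7 and 35.2 CPM in SW620 (-1.45). ELAC2, which cuts the 3′ ends of transfer RNAs, measured 236 and 261 CPM against 118 and 113 CPM (-1.11). REXO2 (-1.40), which removes short RNAs, and TBRG4 (-1.25) were also lower.

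Of 47 tested assembly factors, which build the complexes without staying in them, 4 rose in SW480 and none fell, beside 1.67% and 1.93% of all genes. NDUFAF8 measured 18 and 27.9 CPM in the controls and 35.1 and 53.9 CPM with caffeine (0.96, adjusted p = 0.0182). TIMMDC1 (0.60), the complex III factor BCS1L (0.55) and COX15 (0.49), needed for heme a, were the others. In SW620, NDUFAF6 (-0.76) and COX16 (-0.77) fell and none rose, beside 6.25% and 8.1% of all genes. The medians were 0.17 in SW480 and -0.17 in SW620. The response differed between the lines for BCS1L (-0.74, adjusted p = 0.0257) and NDUFAF8 (-1.13, adjusted p = 0.0279). Between the untreated lines 6 of the 47 were higher and 11 lower in SW620, beside 33% and 32.6% of all genes.

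Of 77 tested proteins of the mitochondrial ribosome, which translates the 13 mRNAs, 1 rose and 1 fell in SW480, beside 1.67% and 1.93% of all genes. In SW620, 4 fell and none rose, beside 6.25% and 8.1%. MRPS6 measured 577 and 684 CPM in the SW480 controls and 365 and 281 CPM with caffeine (-0.97, adjusted p = 0.00295). In SW620 it was at 38.9 and 44.3 CPM without and 49.8 and 38.0 CPM with caffeine, and its response differed between the lines (1.04, adjusted p = 0.00894). MRPS17, MRPL34, MRPS25 and MRPS26 fell in SW620, by 0.48 to 0.65 on the log2 scale. The medians were 0.11 in SW480 and -0.05 in SW620. Between the untreated lines, 15 were higher and 26 lower in SW620, beside 33% and 32.6% of all genes, with MRPS6 at -3.92.

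Of 7 subunit isoforms known from restricted tissues, 2 were tested, COX6B2 and NDUFA4L2, with the values given above. COX6A2 and COX7B2 had a count of 0 in every library, and COX7A1 stood between 0 and 0.536 CPM. The 7 together summed to 3.93 to 8.40 CPM in the 8 libraries.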

How the data were processed

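Poly-A RNA from 8 cultures was sequenced as single reads of 75 bp on a NextSeq 500 from RNA with an integrity number of at least 8, per the labels' protocols. The authors deposited raw counts per Ensembl gene. Trim Galore, STAR 2.7.3a, featureCounts 2.0.5 and hg38 are named in the submitters' processing notes; no source used here gives the strand setting or annotation release. The 12 totals of unassigned and assigned reads per file were left out (7.36% to 8.37% of reads were ambiguous, 13.3% to 17.5% had low mapping quality). Of 62649 gene IDs 62625 matched a symbol and 58225 GENCODE 29, the source of coordinates, lengths and overlaps. Of the 101 members, 54 share exon bases with another gene, 32 of them on the same strand.

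All 8 libraries were fitted in edgeR 4.0.16 (R 4.3.3; filterByExpr, TMM, robust quasi-likelihood F test, 4 group means) and adjusted by Benjamini-Hochberg over 17671 genes at 0.05; "rose", "fell" and "called" refer to this. The contrasts were caffeine against control in each line, the difference of these effects, and SW620 against SW480 controls. The coefficient of biological variation was 10.5% with every library, 13.1% with those of SW480 alone and 7.00% with those of SW620 alone. CPM is TMM-scaled; TPM used 1 transcript length per gene; replicate differences used log2(CPM + 0.1). The script was tested on simulated data. Alternatives were DESeq2 size factors, no filter, DESeq2 1.42.0 (Wald), limma-voom (limma 3.58.1), the replicate number as a block, a separate fit of each line, no mtDNA genes, and each library left out.

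The members, gene lists and alternatives were chosen with earlier results of these data known. Named genes were the 13 mtDNA mRNAs, SDHA to SDHD, the 10 largest called changes in each direction per comparison, restricted isoforms, and up to 4 genes per list by adjusted p; other genes were named after their values were seen. The lists were mtDNA transcription and replication, mtDNA transcript processing, assembly factors, mitochondrial ribosomal proteins, mtDNA rRNAs and transfer RNAs, nuclear copies of mtDNA, nuclear-retained RNAs, epithelial markers, markers of other cell types, and restricted isoforms. One member's own values are not reported here.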

Additional observations from a re-analysis of the deposited data

How the results depend on the processing

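The number of mtDNA mRNAs called in SW480 went from 0 to 1 with DESeq2 size factors, with no filter on low counts and with limma-voom. The corresponding number of nuclear genes went from 0 to 1 with no filter. In SW620 no filter gave 1 mtDNA and 2 nuclear genes, and the separate fit of each line gave 8 and 10. For the difference between the responses no filter gave 4 nuclear genes. The labels do not say whether the replicate number pairs the samples. Correlations of same-numbered deviations across genes were 0.0257 in SW480 and 0.0136 in SW620. Each sets 1 control difference against 1 caffeine difference, so they cannot settle whether the cultures were paired. With the replicate block, 3 mtDNA mRNAs and 1 nuclear gene were called in SW480, 2 nuclear genes for the difference, and 1 mtDNA mRNA between the lines. The causes of these changes were not tested. All-gene shares were not worked out for DESeq2 size factors, DESeq2's Wald test, limma-voom, no filter or the replicate block. Counts from these settings therefore stand without a background.

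With each library left out in turn, the numbers called ran from 0 to 13 (mtDNA) and 0 to 12 (nuclear) in SW480, 0 to 6 and 0 to 4 in SW620, 0 to 12 and 0 to 16 for the difference, and 0 to 1 and 29 to 44 between the lines. The mtDNA mRNAs called in SW480, and those called for the difference, appeared without SW480 caffeine replicate 1, and those in SW620 without either SW480 caffeine library. The nuclear genes called in SW480 and for the difference were most numerous without SW480 control replicate 2. In SW620, 4 nuclear genes were called without either SW480 control, and 0 without SW620 control replicate 1, SW620 control replicate 2 or SW620 caffeine replicate 2.

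Signs turned for values that were not called with all 8 libraries. Of these, MT-ATP8 and MT-ND4L in SW480 were called lower without SW480 caffeine replicate 1, and SDHC between the lines without SW480 control replicate 1. In SW480 MT-ATP8 ran from -1.60 to 0.0101 and MT-ND4L from -0.92 to 0.0933. In SW620 MT-CO1 ran from -0.14 to 0.34, MT-ND4L from -0.22 to 0.0044, MT-ND5 from -0.27 to 0.10 and MT-ND6 from -0.0429 to 0.29. Between the lines SDHC ran from -0.36 to 0.00644. COX6B2, with 4 and 3 counts in the SW620 controls, was near the limit that a count of 0 allows.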
